A study of Mus musculus with 3 samples.

Results

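The 42 genes described here encode Wnt, Fgf and hedgehog ligands, studied in mouse embryonic stem cells (ESCs). They comprised 19 Wnt, 20 Fgf and 3 hedgehog genes out of 22380 protein-coding genes in the GENCODE vM1 annotation. The genes were chosen by name and not by a measured value, but with earlier results of these data known. The list does not hold every Fgf gene, and Fgf genes outside it were not counted. Their promoters were taken as the windows from 2 kb upstream to 2 kb downstream of every annotated transcript start (92 starts on 16 chromosomes, 18 genes with 1 start and 24 with more, up to 7 at Fgf1). A gene was called in a library when an enriched region of that library overlapped its windows by at least 1 bp.

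The study examined the extended acidic patch of the histone variant H2A.Z in differentiating ESCs, and the lists used here show where wild-type and mutant H2A.Z lay in ESCs. ChIP-Seq lists of 3 libraries were used, each from 1 sample. Both H2A.Z libraries, named H2A.Z WT and H2A.Z AP3 here, derived from KH2-based transgenic ESC lines that expressed a YFP fusion of H2A.Z, wild-type or carrying the substitutions G92N, D97N and S98K, from a doxycycline-inducible CMV-promoter transgene delivered by lentivirus. In both lines YFP-positive cells had been sorted, endogenous H2A.Z had been depleted with a short hairpin against its 3′ untranslated region, and chromatin was precipitated with an antibody to GFP, which also binds YFP. The H3K27me3 library was made from ESCs labelled as wild-type, so the mark and the H2A.Z proteins were measured in separate cultures. V6.5 is the strain given in the labels of every sample, the transgenic lines included. The lists hold the start and end of each region and no height or read count, so the depth is unknown, and with 1 library per group no difference has a replicate check and no test was made. Lists called at a P threshold of 1e-9 were used, in which H2A.Z WT had 78359 regions, H2A.Z AP3 had 14599 and H3K27me3 had 16970. They hold no expression values against which the labelled cell type could be checked.

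Wnt, Fgf and hedgehog proteins are secreted signals through which cells of the embryo pattern their neighbours. Wnts bind Frizzled receptors with Lrp5 or Lrp6 and stabilise beta-catenin, Fgfs bind receptor tyrosine kinases and activate the MAP kinase pathway, and hedgehogs release Smoothened to act on the Gli transcription factors. Fgf11, Fgf12 and Fgf14 are exceptions, as their products stay inside the cell and bind voltage-gated sodium channels. In ESCs many genes of such developmental regulators carry H3K27me3, the repressive mark laid down by Polycomb repressive complex 2, and their CpG-rich promoters also hold H2A.Z.

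The sequences on which the mutant histone was called are shown first, because the H2A.Z AP3 regions are few and short. The windows of the ligand genes held 21 such regions at 17 genes, with a median length of 250 bp against 500 bp for the 93 H2A.Z WT regions and 850 bp for the 93 H3K27me3 regions. Printed here are 7 of them, at most 300 bp long and clear of untranslated regions. Not every such region is printed, and those of 1 bin of 25 bp, at Wnt1, Wnt6, Wnt9a and Wnt11, are among those left out. The 7 were taken from the mm9 reference genome, each on the strand of its gene and 5′ to 3′, in lower case with every CpG dinucleotide in capitals. They are reference sequence and not that of the cells. At Wnt11 the region was chr7:105985301-105985550 (plus strand), in an intron 1660 to 1909 bp after the second start. At Fgf3 it was chr7:152023601-152023850 (plus strand), from -387 to -138 bp of the first start (negative is upstream). At Wnt5b it was chr6:119494476-119494675 (minus strand), from -339 to -140 bp of the first start. At Fgf11 it was chr11:69616176-69616325 (minus strand), and at Fgf17 chr14:71043151-71043250 (minus strand), both upstream of the gene. At Wnt7a it was chr6:91361001-91361075 (minus strand), centred in coding exon sequence 320 bp after the first start. At Fgf14 it was chr14:125074551-125074625 (minus strand), in an intron.
Wnt11: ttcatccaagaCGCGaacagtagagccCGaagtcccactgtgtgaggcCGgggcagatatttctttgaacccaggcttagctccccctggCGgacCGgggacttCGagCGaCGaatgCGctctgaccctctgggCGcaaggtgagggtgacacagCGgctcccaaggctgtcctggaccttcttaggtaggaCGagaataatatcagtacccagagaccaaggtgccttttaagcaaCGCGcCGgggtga
Fgf3: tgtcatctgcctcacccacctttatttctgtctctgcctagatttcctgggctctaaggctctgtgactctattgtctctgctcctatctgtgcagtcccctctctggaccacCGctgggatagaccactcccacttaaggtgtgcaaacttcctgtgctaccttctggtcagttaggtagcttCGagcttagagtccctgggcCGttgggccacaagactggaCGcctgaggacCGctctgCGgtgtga
Wnt5b: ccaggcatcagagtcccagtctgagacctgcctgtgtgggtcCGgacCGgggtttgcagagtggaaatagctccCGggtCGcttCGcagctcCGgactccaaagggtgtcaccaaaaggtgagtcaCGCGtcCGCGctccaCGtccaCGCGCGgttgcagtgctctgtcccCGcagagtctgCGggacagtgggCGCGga
Fgf11: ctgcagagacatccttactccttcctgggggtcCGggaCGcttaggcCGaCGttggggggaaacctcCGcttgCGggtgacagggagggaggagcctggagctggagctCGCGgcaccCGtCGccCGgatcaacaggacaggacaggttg
Fgf17: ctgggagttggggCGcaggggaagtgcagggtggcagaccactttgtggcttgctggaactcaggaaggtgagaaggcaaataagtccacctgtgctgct
Wnt7a: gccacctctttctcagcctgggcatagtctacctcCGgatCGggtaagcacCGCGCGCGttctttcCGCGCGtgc
Fgf14: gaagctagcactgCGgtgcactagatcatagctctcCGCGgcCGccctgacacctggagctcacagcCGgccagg

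The capitals show how unequal these regions were. The Wnt7a region packed 9 CpGs into 75 bp, a number reached by 3.35% of the 1046 H2A.Z AP3 regions of that length in the genome, and the Wnt5b region held 18 in 200 bp, reached by 5.74% of 1220. The Fgf17 region held 1 CpG in 100 bp, a number reached by 88% of 1041 regions of its length, and the Fgf3 region 6 in 250 bp, reached by 66.4% of 548. Over the 21 regions the median was 4 CpGs per 100 bp, compared with 2.67 over all 14599 H2A.Z AP3 regions. The latter were not limited to windows around starts, so the contrast cannot be called particular to ligand genes.

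Most ligand genes had regions of both wild-type H2A.Z and H3K27me3 in their windows, though not always on the same bases. H2A.Z WT was called at 36 of 42 (85.7%), compared with 61.6% of all protein-coding genes. H3K27me3 was called at 33 (78.6%), compared with 18.1%. Both were called at 31 (73.8%), compared with 17.3%. H2A.Z AP3 was called at 17 (40.5%), compared with 23.1%, and all 3 libraries at 14 (33.3%), compared with 7.89%. Without chromosomes 6 and 8, where H2A.Z AP3 regions were denser, the last count was 9 of 35 (25.7%), compared with 7.13%. Only 4 ligand genes had none (9.52%), compared with 36.4% of all genes. By family H3K27me3 was called at 18 of 19 Wnt genes, 12 of 20 Fgf genes and all 3 hedgehog genes.

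**Figure D1:**
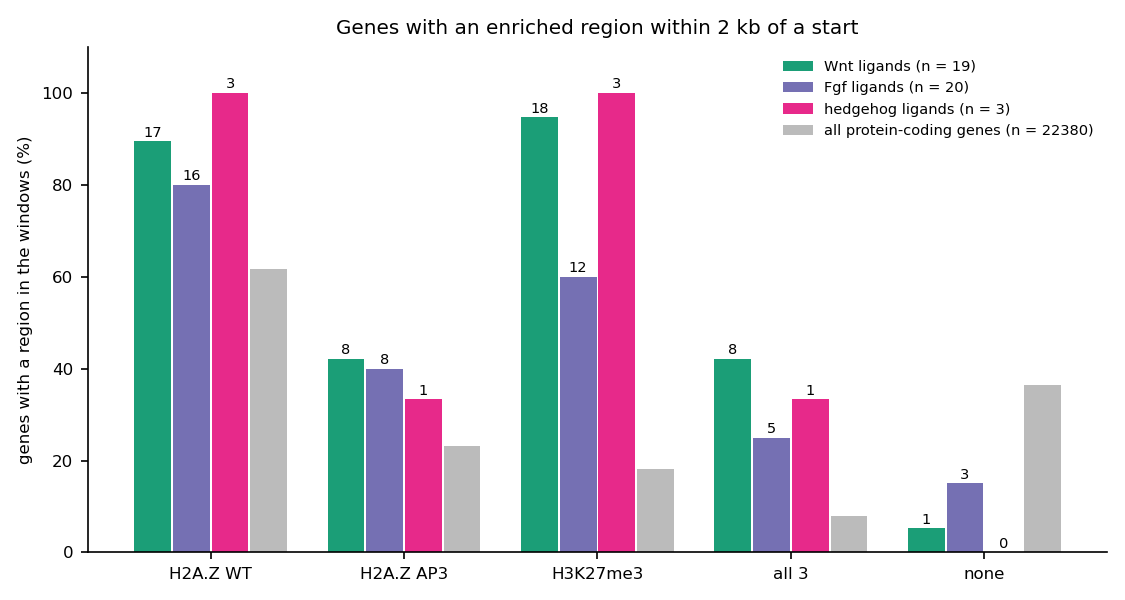
Percentage of genes with an enriched region within 2 kb of a start, for the Wnt, Fgf and hedgehog ligands and for all 22380 protein-coding genes, in each library, in all 3 and in none. Numbers above the bars are counts of ligand genes; H3K27me3 was called at 18 Wnt, 12 Fgf and 3 hedgehog genes, against 18.1% of all genes.

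Sorted by pattern, 17 ligand genes carried H2A.Z WT and H3K27me3 without H2A.Z AP3 (Wnt2b, Wnt3, Wnt3a, Wnt4, Wnt5a, Wnt7b, Wnt8a, Wnt9b, Wnt10b, Fgf5, Fgf8, Fgf9, Fgf10, Fgf12, Fgf15, Shh and Dhh). The 14 with all 3 libraries were Wnt1, Wnt2, Wnt5b, Wnt6, Wnt7a, Wnt9a, Wnt11, Wnt16, Fgf2, Fgf3, Fgf11, Fgf14, Fgf20 and Ihh. Fgf1, Fgf17 and Fgf21 had both H2A.Z proteins and no H3K27me3, Fgf6 and Fgf22 had H2A.Z WT only, and Wnt10a and Fgf18 had H3K27me3 only. Wnt8b, Fgf4, Fgf7 and Fgf23 had no region of any library. No ligand gene had H2A.Z AP3 without H2A.Z WT, and each of the 21 H2A.Z AP3 regions overlapped an H2A.Z WT region. Calls for the mutant protein alone were rare in general. It was called at 5180 protein-coding genes, and at 4894 of these the wild-type protein was called too. The gene count thus says nothing particular of the ligands, and no such share is given here for regions elsewhere.

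The bases covered were counted next. H3K27me3 covered a median of 2053 bp of the windows of a ligand gene (0 bp over all genes) and H2A.Z WT 1475 bp (292 bp over all genes), while H2A.Z AP3 covered a median of 0 bp in both sets. Summed over the 42 genes, H3K27me3 regions took up 41.5% of the window bases, H2A.Z WT regions 23.5% and H2A.Z AP3 regions 3.18%, compared with 3.56%, 7.54% and 1.08% over all protein-coding genes. H3K27me3 covered at least 50% of the windows of 20 ligand genes (13 Wnt, 4 Fgf and 3 hedgehog), which is 47.6% of them, and of 601 protein-coding genes, which is 2.69%. Windows were wider at genes with more starts, with a median of 4053 bp at ligand genes and 4052 bp at all genes.

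**Figure D2:**
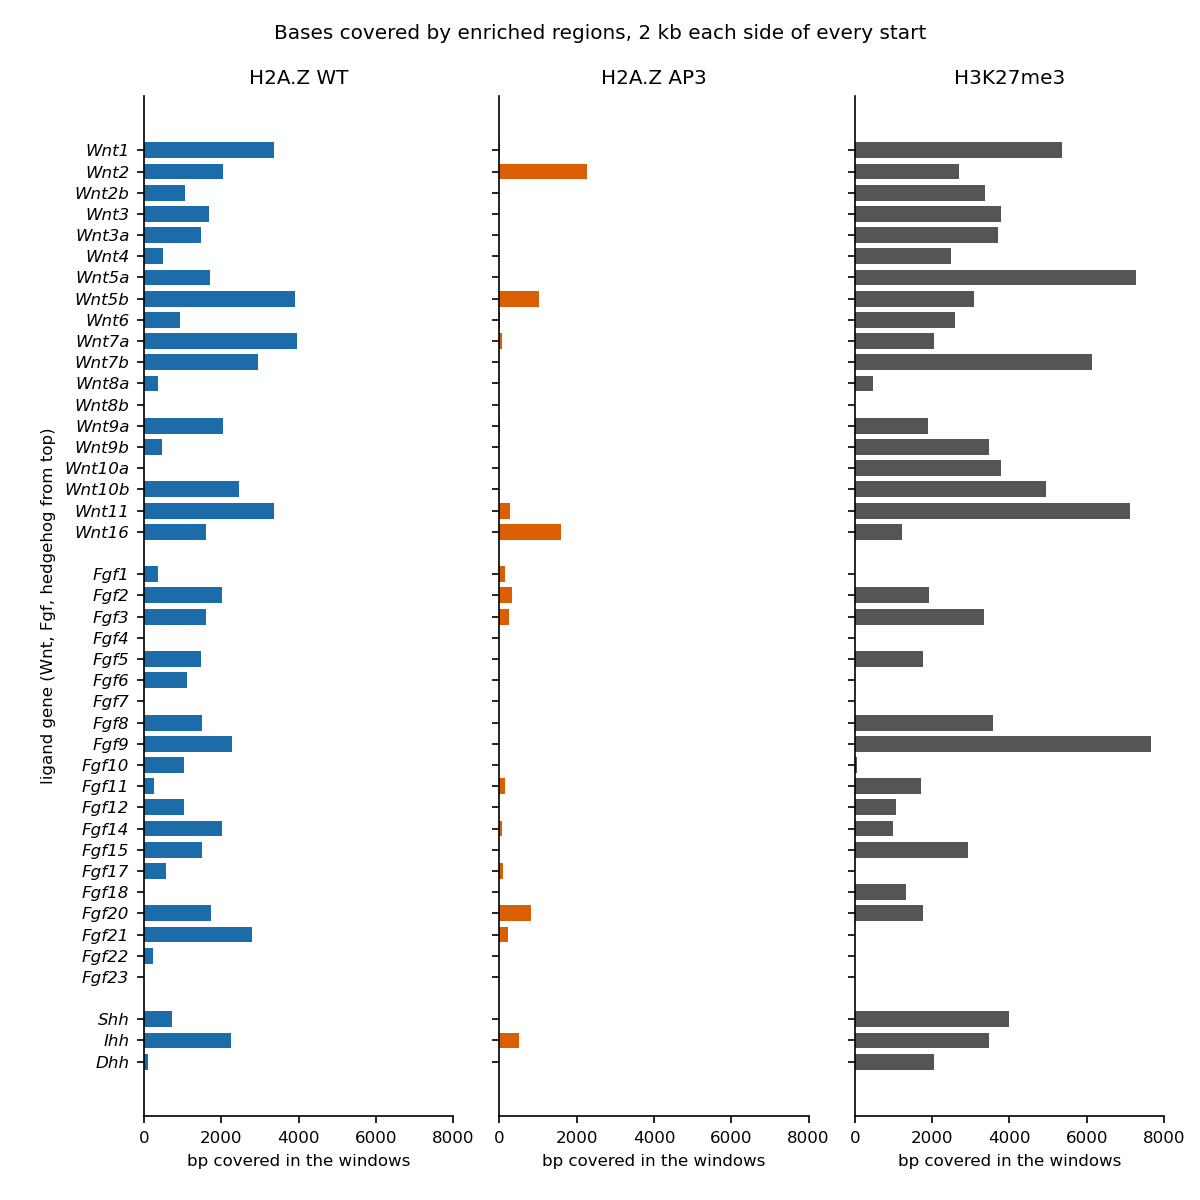
Bases of the windows of each ligand gene covered by regions of each library (bars, 1 library each, all 3 panels on the same axis in bp). H3K27me3 reaches 7667 bp at Fgf9 and 7283 bp at Wnt5a, H2A.Z WT 3950 bp at Wnt7a, and H2A.Z AP3 is longest at Wnt2 with 2275 bp and absent from 25 genes.

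Among the Wnt genes, H3K27me3 was longest at Wnt5a, a Wnt of axis elongation and limb outgrowth that mostly acts without beta-catenin. The gene lies on chromosome 14 (mm9, 29317936 to 29340633, plus strand). Its windows held 7283 bp of the mark (72.9% of their bases), 1700 bp of H2A.Z WT and no H2A.Z AP3. At Wnt11, which directs cell movements in gastrulation, the windows held 7125 bp of H3K27me3 (91.5%), 3375 bp of H2A.Z WT and 275 bp of H2A.Z AP3. At Wnt7b, needed in lung and placenta, the values were 6126 bp of H3K27me3, 2951 bp of H2A.Z WT and 0 bp of H2A.Z AP3. As many bases of H3K27me3 were found at 0.112% of all genes for Wnt5a, 0.116% for Wnt11 and 0.206% for Wnt7b. These genes have several starts and wide windows, and as large a share of the windows was covered at 1.07% of all genes for Wnt5a, 0.183% for Wnt11 and 0.693% for Wnt7b.

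H2A.Z WT covered the most bases at Wnt7a and Wnt5b, whose windows were wide (8012 and 12003 bp). As a share of the windows this was 49.3% and 32.6%, and as large a share was found at 1.02% and 4.52% of all genes. Among the Wnt genes, Wnt1 (57.8%) and Wnt9a (51.2%) had larger shares. Wnt7a, the dorsal signal of the limb, held 3950 bp of H2A.Z WT, 75 bp of H2A.Z AP3 and 2051 bp of H3K27me3. Wnt5b held 3915, 1025 and 3090 bp in the same order. Wnt1, the organiser of the midbrain-hindbrain boundary, held 3375 bp of H2A.Z WT and 5360 bp of H3K27me3, which filled 91.9% of its windows, but a single 25-bp bin of H2A.Z AP3. At Wnt7a the wild-type protein thus covered more of the windows than the Polycomb mark, and at Wnt5a and Wnt1 less.

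The other Wnt genes with both H2A.Z WT and H3K27me3 had between 350 bp (Wnt8a) and 2453 bp (Wnt10b) of the former and between 475 bp (Wnt8a) and 4956 bp (Wnt10b) of the latter. Wnt3, required for the primitive streak, had 94.7% of its window in H3K27me3 and 1675 bp of H2A.Z WT. Wnt3a, which maintains axial progenitors, had 92.5% and 1475 bp. Wnt4, a kidney and gonad signal with 137 CpGs within 500 bp of its start, had 61.9% and 500 bp of H2A.Z WT. Wnt8a had 11.9% in H3K27me3 at its window, and the mark lay further into the gene, where it covered 78.3% of the body outside the window.

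The Fgf genes were split. Fgf9, a signal to mesenchyme in lung and gonad, held 7667 bp of H3K27me3 (77% of its windows) and 2275 bp of H2A.Z WT, and as many H3K27me3 bases were found at 0.0849% of all genes and as large a share of the windows at 0.831%. Fgf8, a signal of gastrulation and of the limb ridge, held 3580 bp of H3K27me3 (84.6%) and 1500 bp of H2A.Z WT. Fgf3, a signal of the inner ear, held 3350 bp (74.2%) and 1600 bp, with 250 bp of H2A.Z AP3. Fgf15, later the intestinal hormone of bile acid control, held 2925 bp (73.1%) and 1500 bp. Fgf5, a marker of the primed epiblast, held 1750 bp (43.7%) and 1475 bp. Fgf10, the limb and lung bud signal, was called for H3K27me3 on 50 bp alone. The 3 listed genes of intracellular Fgfs had 1700 bp (Fgf11), 1075 bp (Fgf12) and 975 bp (Fgf14) of H3K27me3.

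The endocrine and paracrine Fgfs without H3K27me3 were a mixed set. Fgf21, the liver hormone of fasting, held 2785 bp of H2A.Z WT, 69.6% of its window, with 210 bp of H2A.Z AP3 and no H3K27me3. As many H2A.Z WT bases were found at 1.43% of all genes and as large a share at 0.107%. Fgf6, a muscle Fgf, held 1100 bp of H2A.Z WT only. Fgf17 held 575 bp of H2A.Z WT and 100 bp of H2A.Z AP3, Fgf1 350 and 150 bp over 7 starts, and Fgf22 225 bp of H2A.Z WT. No other listed Fgf gene had as much H2A.Z WT as Fgf21.

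All 3 hedgehog genes were called for H2A.Z WT and H3K27me3. At Shh, the signal of the notochord and limb (chromosome 5, 28783355 to 28793641, minus strand), a single 4400-bp H3K27me3 region covered the whole window (4001 bp), which was so at 0.0313% of all genes, and joining regions up to 1 kb apart gave a domain of 13400 bp. Shh held 735 bp of H2A.Z WT and no H2A.Z AP3. Ihh, the signal of growth cartilage, held 3472 bp of H3K27me3 (86.3%), 2251 bp of H2A.Z WT and 500 bp of H2A.Z AP3. Dhh, the signal of Sertoli and Schwann cells, held 2055 bp of H3K27me3 and 100 bp of H2A.Z WT. Outside the windows H3K27me3 also covered 87.1% of the body of Shh, 79.7% of Dhh and 69.2% of Ihh. Joined domains were long in general: the median over the 33 ligand genes with H3K27me3 was 5200 bp, compared with 1550 bp over the 4060 protein-coding genes with the mark.

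Around the start the marks had different shapes. H3K27me3 was sparser at the start than beside it: 33.4% of ligand genes lay inside a region at the start itself (averaged over a gene's starts), and the share reached 54.5% at 375 bp upstream and 58.5% at 750 bp downstream. The dip was also there over all protein-coding genes, with 2.94% at the start, 4.55% at 675 bp upstream and 6.75% at 800 bp downstream, so it is not particular to ligand genes. H2A.Z WT was most frequent downstream, with 56.2% at 300 bp after the start compared with 36.5% at 25 bp before it. In the 1 kb downstream, H2A.Z WT covered a mean of 436 bp per start and in the 1 kb upstream 277 bp. Over all genes these were 184 and 119 bp, with the peak nearer to the start, at 150 bp (30.4%). H2A.Z AP3 covered 47.5 bp downstream and 35.7 bp upstream at ligand genes, compared with 24.6 and 20.6 bp over all genes.

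**Figure D3:**
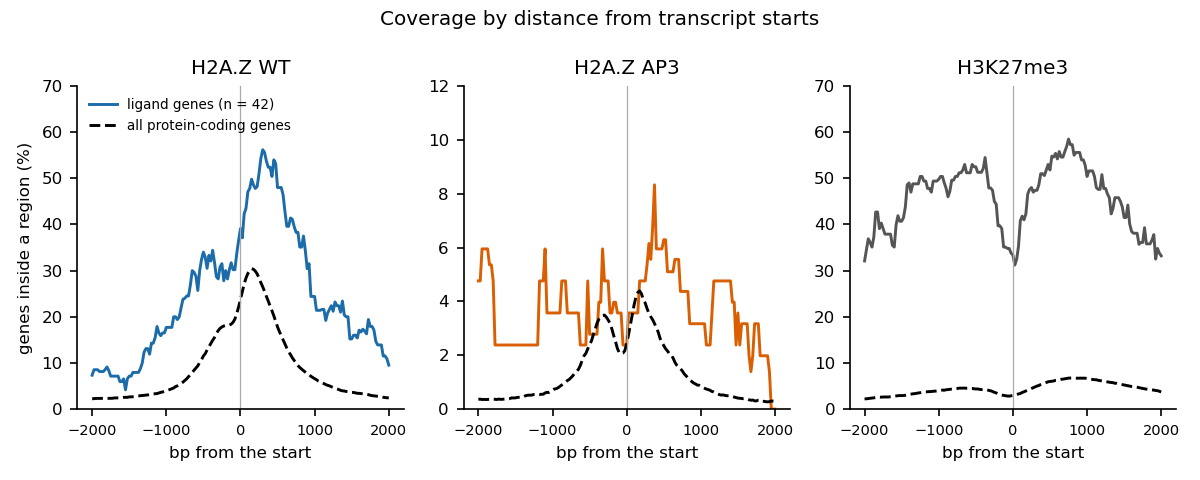
Percentage of genes inside an enriched region by distance from the transcript start in bp, for the 42 ligand genes (coloured lines) and all protein-coding genes (dashed), in bins of 25 bp; negative values are upstream. The H2A.Z AP3 panel has its own, smaller axis. H3K27me3 at ligand genes is at 33.4% at the start, below 54.5% and 58.5% on its flanks, and H2A.Z WT reaches 56.2% at 300 bp downstream.

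A start lay inside an H2A.Z WT region at 22 ligand genes (52.4%), compared with 35.2% of all genes, and inside an H3K27me3 region at 19 (45.2%), compared with 4.72%. For H2A.Z AP3 this was so at 1 gene (2.38%), compared with 4.43%, a share near the background. That gene was Wnt16, with a 1600-bp H2A.Z AP3 region over all 3 of its starts.

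H2A.Z AP3 was spread unevenly over the 17 genes. Wnt2, a lung Wnt on chromosome 6 (17938940 to 17980585, minus strand), held 2275 bp in regions of 1900 and 375 bp, compared with 2050 bp of H2A.Z WT, and as many H2A.Z AP3 bases were found at 16 of the 22380 genes (0.0715%) and as large a share of the windows at 0.0223%. Wnt16, on the same chromosome (22238227 to 22250409, plus strand), held 1600 bp of each. At these 2 of 36 ligand genes with H2A.Z WT (5.56%), H2A.Z AP3 covered at least as many bases, compared with 2.6% of all genes with H2A.Z WT. Over all genes, H2A.Z AP3 covered 4.08% of the window bases on chromosomes 6 and 8 and 0.75% on the others. With the stricter lists, called at 1e-12, H2A.Z AP3 covered fewer bases than H2A.Z WT at both Wnt2 and Wnt16. Wnt2 then held 1325 bp of H2A.Z AP3 and 1975 bp of H2A.Z WT, and Wnt16 held 700 and 1550 bp. In the main lists Wnt5b held 1025 bp of H2A.Z AP3 in 3 regions, Fgf20 825 bp, Ihh 500 bp and Fgf2 325 bp. The Fgf2 region lay at a noncoding start that also lies beside the starts of Bbs12 and Cetn4. Wnt11 held 275 bp, Fgf3 250 bp, Fgf21 210 bp, Fgf1 and Fgf11 150 bp each, and Fgf17 100 bp. The remaining 5 genes had under 100 bp: Wnt7a and Fgf14 with 75 bp, and Wnt1, Wnt6 and Wnt9a with 1 bin of 25 bp. Of the 93 H2A.Z WT regions, the 20 that overlapped H2A.Z AP3 had a median length of 975 bp and the 73 that did not 475 bp. The same split was not made over all H2A.Z WT regions, so it cannot be called particular to ligand genes.

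**Figure D4:**
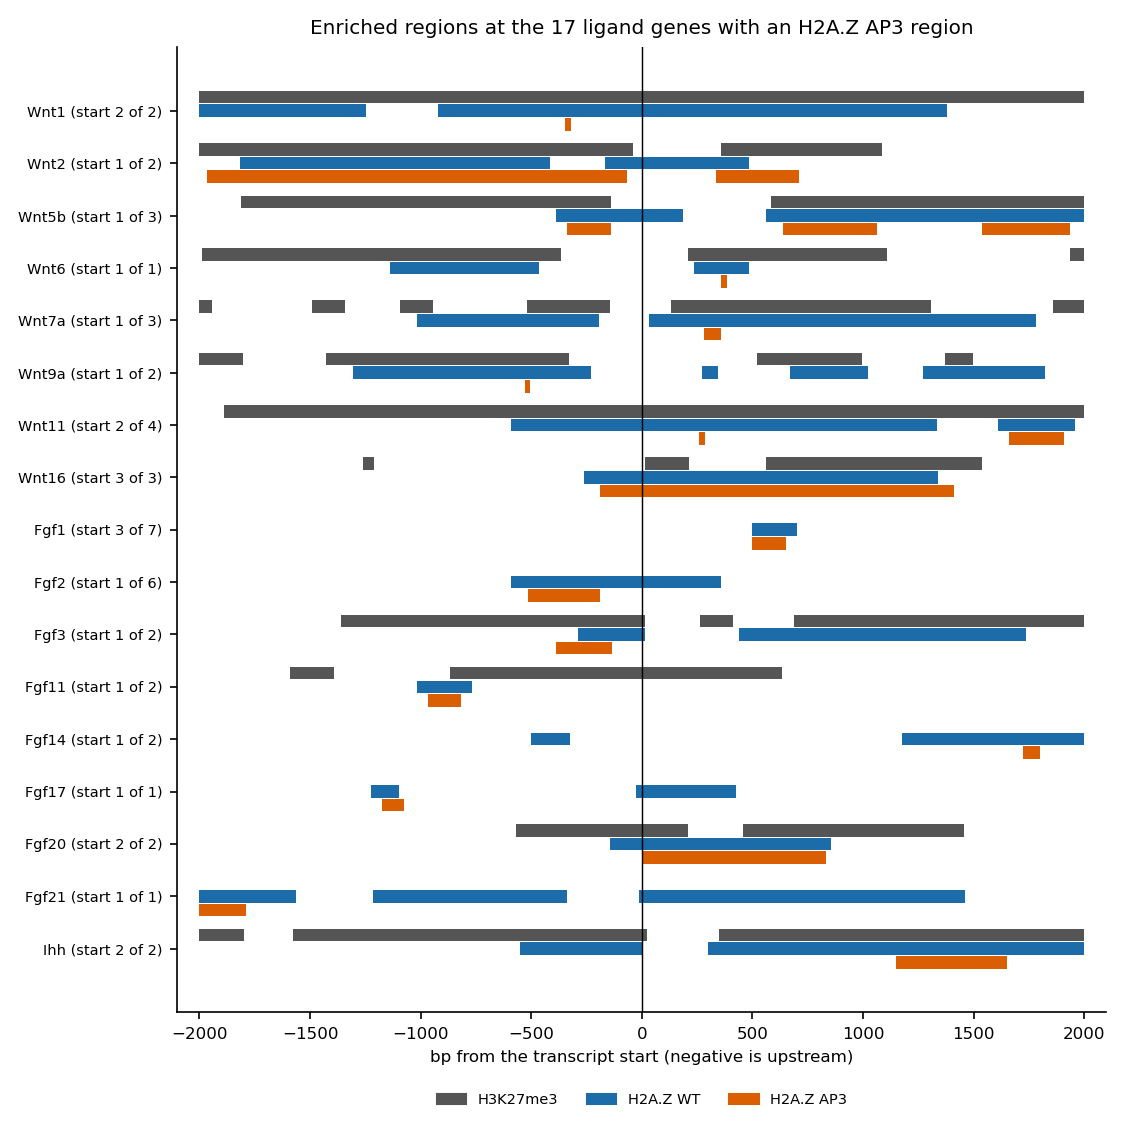
Enriched regions of H3K27me3 (grey), H2A.Z WT (blue) and H2A.Z AP3 (orange) by distance in bp from the transcript start nearest to the longest H2A.Z AP3 region, for the 17 ligand genes with such a region. Each H2A.Z AP3 bar overlaps an H2A.Z WT bar. At Wnt16 both bars span 1600 bp, and at Wnt2 the H2A.Z AP3 bars span 1900 and 375 bp and the H2A.Z WT bars 1400 and 650 bp.

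Among ligand genes with H2A.Z WT, 17 of 36 also had H2A.Z AP3 (47.2%), compared with 35.5% of all genes with H2A.Z WT. Among those with H2A.Z WT and H3K27me3 the count was 14 of 31 (45.2%), compared with 45.7%, a share near the background that says nothing particular of the ligands. H2A.Z AP3 covered 13.5% as many window bases as H2A.Z WT at ligand genes and 14.3% at all genes. These ratios leaned on chromosomes 6 and 8, where H2A.Z AP3 regions were denser over all genes: on them H2A.Z AP3 was called at 62.4% of genes with H2A.Z WT and at 31.9% on the other chromosomes. Of 6 ligand genes there with H2A.Z WT, 5 had H2A.Z AP3 (83.3%: Wnt2, Wnt5b, Wnt7a, Wnt16 and Fgf20, but not Fgf6), and they held 5800 of the 7910 H2A.Z AP3 bases (73.3%). On the other chromosomes 12 of 30 had it (40%), and H2A.Z AP3 covered 4.79% as many bases as H2A.Z WT, compared with 10.7% over all genes there. With H2A.Z WT and H3K27me3 both called, the values off chromosomes 6 and 8 were 4.11% at 26 ligand genes and 9.49% at all such genes. Without Wnt2 and Wnt16 alone, which held 3875 bp, the ratio over ligand genes was 7.37%. The cause of the difference between chromosomes was not tested. The lower coverage of H2A.Z AP3 as a whole and the unknown depth of its library cannot be told apart.

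At ligand genes with starts far apart, the libraries often marked just some of them. At Wnt5b the first start, with 130 CpGs within 500 bp, held 2015 bp of H2A.Z WT, all 1025 bp of H2A.Z AP3 and all 3090 bp of H3K27me3, whereas the other two, with 10 and 33 CpGs, held 425 and 1475 bp of H2A.Z WT and nothing else. At Wnt7a H3K27me3 and H2A.Z AP3 likewise lay at the first start (95 CpGs), and the other two (14 CpGs each) held H2A.Z WT only. At Fgf12 the first start (50 CpGs) held 1025 bp of H2A.Z WT and 1075 bp of H3K27me3 and the second (14) nothing. At Fgf10 only start 3 (coding, 47 CpGs) was covered, and starts 1 and 2 (noncoding, 14 each) were not. At Fgf2 starts 2 and 3 (coding, 54 and 77 CpGs) held the H3K27me3, while the noncoding first start (63), shared with other genes, held 950 bp of H2A.Z WT and no H3K27me3. Fgf14 had H2A.Z AP3 at its first start (25 CpGs) and H3K27me3 at its second (39), which lies 484225 bp downstream. Fgf20 was the reverse of Wnt5b: its first start, with 91 CpGs and also beside the start of Efha2, held 725 bp of H2A.Z WT alone, and its second, with 45 CpGs, held 1000 bp of H2A.Z WT, 825 bp of H2A.Z AP3 and 1775 bp of H3K27me3. Fgf1 had H2A.Z AP3 at start 3 of its 7.

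The CpG content of the starts was set beside the calls. Counted within 500 bp of the start richest in CpG, the median was 61 at ligand genes and 47 at all genes, 78 at Wnt genes, 48.5 at Fgf genes and 41 at hedgehog genes. Ligand genes with H3K27me3 had a median of 77 (n = 33) and those without 21 (n = 9). This split was not made over all genes, so it cannot be called particular to ligand genes. Some genes lay away from these medians. Shh with 39 and Wnt10a with 37 CpGs had 100% and 94.7% of their windows in H3K27me3. Fgf4 had 88 CpGs, more than 83.6% of all genes, and no region of any library, unlike the other uncalled genes Wnt8b (21), Fgf7 (20) and Fgf23 (11). In the 250 bp upstream of the first start GGGCGG, on either strand, was found at 27 ligand genes (64.3%), compared with 39.6% of all genes, and TATAAA at 2 (Wnt11 and Fgf21, 4.76%), compared with 12.3%.

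**Figure D5:**
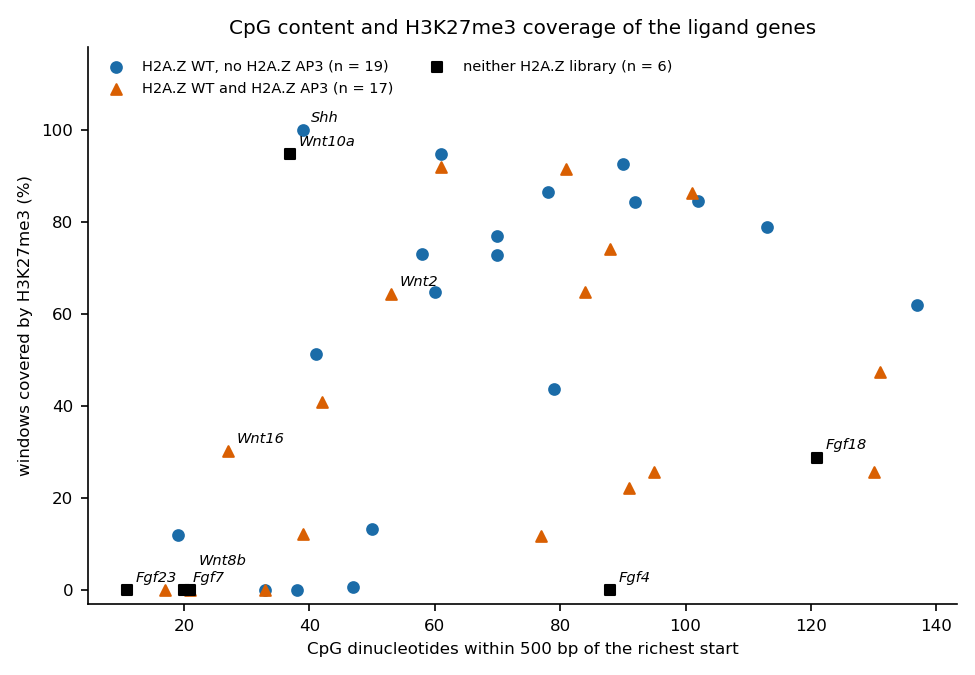
Number of CpG dinucleotides within 500 bp of the CpG-richest start (horizontal) and percentage of the windows covered by H3K27me3 (vertical) for each ligand gene; symbols give the H2A.Z libraries called. Fgf4 (88 CpGs) lies at 0%, and Shh (39) and Wnt10a (37) lie at 100% and 94.7%.

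The 6 ligand genes without H2A.Z WT are of interest for the wild-type protein, and the 250 bp upstream of 4 of them, picked after their values were seen, are printed as the sequences above, with CpGs in capitals. Fgf4, made by the pluripotent cells of the early embryo and by ESCs, where it drives exit from self-renewal, lies on chromosome 7 (152047291 to 152051148) with 1 start, and its stretch is chr7:152047041-152047290 (plus strand). Fgf18, a regulator of cartilage and bone, was called for H3K27me3 alone (1325 bp in 3 regions), and its stretch is chr11:33047401-33047650 (minus strand). Wnt10a, a Wnt of teeth and skin appendages, had a 5575-bp H3K27me3 region over its start and no H2A.Z within its window. Beyond the window that region overlapped 825 bp of H2A.Z WT. The Wnt10a stretch is chr1:74837840-74838089 (plus strand). Fgf7, the keratinocyte growth factor of mesenchyme, had no region, and its stretch is chr2:125860144-125860393 (plus strand).
Fgf4: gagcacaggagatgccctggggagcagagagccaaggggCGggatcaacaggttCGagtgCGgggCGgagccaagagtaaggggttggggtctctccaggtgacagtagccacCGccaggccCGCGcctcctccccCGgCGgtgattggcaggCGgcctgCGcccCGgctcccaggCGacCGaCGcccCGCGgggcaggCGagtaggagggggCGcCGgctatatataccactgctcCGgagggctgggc
Fgf18: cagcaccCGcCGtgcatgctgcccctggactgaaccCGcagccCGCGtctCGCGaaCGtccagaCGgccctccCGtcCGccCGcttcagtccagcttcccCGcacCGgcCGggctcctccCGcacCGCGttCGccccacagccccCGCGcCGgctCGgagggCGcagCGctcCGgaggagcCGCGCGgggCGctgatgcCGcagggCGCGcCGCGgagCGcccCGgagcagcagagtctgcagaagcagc
Wnt10a: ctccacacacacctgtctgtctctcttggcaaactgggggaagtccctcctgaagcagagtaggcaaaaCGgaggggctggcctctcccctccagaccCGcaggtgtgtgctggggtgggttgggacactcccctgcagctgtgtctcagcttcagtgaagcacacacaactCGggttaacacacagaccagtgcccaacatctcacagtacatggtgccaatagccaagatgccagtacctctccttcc
Fgf7: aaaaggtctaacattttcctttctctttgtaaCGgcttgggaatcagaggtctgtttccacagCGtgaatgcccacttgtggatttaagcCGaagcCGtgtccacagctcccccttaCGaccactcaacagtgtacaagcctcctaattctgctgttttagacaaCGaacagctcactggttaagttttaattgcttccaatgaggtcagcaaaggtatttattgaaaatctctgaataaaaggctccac

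The Fgf18 stretch holds 37 CpGs, a number reached by 2.53% of all protein-coding genes, and the Fgf4 stretch 21, reached by 19%, and both hold GGGCGG. The Wnt10a stretch holds 3 CpGs, reached by 75.4%, and the Fgf7 stretch 6, reached by 59.5%, against a median of 8 over all genes. H3K27me3 without H2A.Z WT, as at Fgf18 and Wnt10a, was found at 2 ligand genes (4.76%) and at 0.876% of all genes. Among genes with H3K27me3 these were 2 of 33 ligand genes and 196 of all 4060 such genes. These shares are similar and say nothing particular of the ligands. The CpG-rich stretch of Fgf18 lay outside the called regions, which were nearest to its second start, with 46 CpGs within 500 bp, and the start of Wnt10a had 37.

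Several ligand genes lie in pairs on a chromosome, and neighbours did not always share a state. Fgf4 lies between Fgf3 and Fgf15, 23303 bp after the start of the former and 35146 bp before that of the latter, and both neighbours were called for H2A.Z WT and H3K27me3. Wnt6 and Wnt10a, 19624 bp apart in the same direction, both carried H3K27me3, but Wnt6 had 925 bp of H2A.Z WT and Wnt10a none. Wnt1 and Wnt10b are divergent at 11707 bp, and H3K27me3 covered 31.7% of the sequence between their starts. Wnt3a and Wnt9a are divergent at 16176 bp (27.8%), and Wnt3 and Wnt9b at 24329 bp (25.6%). Of each divergent pair both genes had H2A.Z WT and H3K27me3. Fgf6, with H2A.Z WT only, and Fgf23, with nothing, lie 57360 bp apart, and H3K27me3 covered 0.697% of the stretch between them. No region was counted at 2 ligand genes.

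The other genes of the 3 pathways were taken from a list of receptors, inhibitors, ligand-processing factors and targets. Of 66 such genes, 62 had H2A.Z WT (93.9%), 29 had H2A.Z AP3 (43.9%) and 42 had H3K27me3 (63.6%), beside the same shares of all genes as above. By pathway H3K27me3 was called at 28 of 39 Wnt, 6 of 15 Fgf and 8 of 12 hedgehog pathway genes. By role it was called at 19 of 27 receptors, 12 of 22 inhibitors and 9 of 14 targets, and H2A.Z AP3 at 13, 11 and 3. The targets of Fgf signalling (Dusp6, Etv4 and Etv5) all had H2A.Z WT and neither of the others.

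In the Wnt pathway, most H2A.Z AP3 was found at Fzd8, a receptor (825 bp), Sfrp4, a secreted inhibitor (800 bp), Wif1, another (700 bp), the receptor gene Fzd9 (650 bp) and Sfrp1 (625 bp). In the Fgf pathway it was found at Spred1, an inhibitor of MAP kinase signalling (325 bp), the receptor gene Fgfr2 (250 bp), Kl, the Fgf23 co-receptor (250 bp), Spry2 (211 bp) and Fgfr4 (150 bp). In the hedgehog pathway it was found at Hhat, which acylates the ligands (600 bp), the decoy receptor gene Hhip (525 bp), the transducer Smo (525 bp) and the co-receptor gene Cdon (200 bp). Hhip and Sfrp1 lie on chromosome 8 and Smo on chromosome 6, so 3 of the 14 genes named here lie on the chromosomes with denser H2A.Z AP3. None of the 66 had as much H2A.Z AP3 as Wnt2 or Wnt16.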

How the data were processed

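Per the labels and the methods, the authors sequenced single-end ChIP-Seq libraries on an Illumina instrument and aligned reads to mm9 (the submitters' processing notes name Bowtie 0.12.3 and bedtools). Reads were extended and counted in 25-bp bins, and bins above a Poisson threshold and a minimal enrichment over input were joined into regions. The deposited lists give coordinates only, 2 per library, named for thresholds of 1e-9 and 1e-12. The former was used. Regions were called per library, without pooling. Neither input nor reads were analysed here.

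Python 3.11.15 and NumPy 2.4.6 were used to overlap regions with windows of 2 kb each side of every transcript start of GENCODE vM1, whose NCBIM37 genome is the mm9 build, and every region ended within its chromosomes. Bases of overlapping windows were counted once per gene. The overlap code was tested on simulated data (10000 genes, 0 wrong). Figures were drawn with matplotlib 3.10.9.

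The members and lists were chosen with earlier results of these data known. Genes were set out with values by rule, though not always with those of all 3 libraries. They were those with H2A.Z AP3 and the 3 of each family with most H2A.Z WT or H3K27me3 bases. Added were those lacking H2A.Z WT or all libraries, those with starts called unequally, and per pathway the 5 genes with most H2A.Z AP3 bases. Others are named for context. Of 69 pathway symbols 3 (Fgfr1, Spry3 and Disp1) did not match exactly 1 protein-coding gene and were left out. The values of 1 further pathway gene are not reported here. Alternatives covered the list, the window, the starts, the minimum overlap and chromosomes 6 and 8. With 1 library per group, no test was made. No paired analysis was possible because each group has 1 sample.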

Additional observations from a re-analysis of the deposited data

Results flagged for a closer look

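At some ligand genes, the stricter lists called at 1e-12 held regions that lay wholly outside the regions called at 1e-9. These regions entered no comparison, and were picked out because they are signal in a list not used for the main values. For H2A.Z WT this was so at 3 ligand genes with 1025 bp in all (Dhh 525 bp, Fgf1 350 bp and Fgf23 150 bp). For H2A.Z AP3 it was so at 5 genes with 625 bp (Fgf20 225 bp, Ihh 200 bp, Fgf22 100 bp, Wnt11 75 bp and Wnt7a 25 bp). For H3K27me3 it was so at 1 gene, Fgf10, with 350 bp. Fgf23 for H2A.Z WT and Fgf22 for H2A.Z AP3 had a region in the stricter list alone. How the 2 lists of a library came to differ was not tested.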

How the results depend on the processing

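The 9 main values and 3 others on H2A.Z AP3 were recomputed under 9 alternatives (the 3 others, and leaving out Wnt2 and Wnt16, were added after seeing the data), and 77 of 87 values stayed within 1.5 times the main one, not counting the median covered by H2A.Z AP3, which was 0 bp throughout. The count with all 3 libraries, 14, became 9 when at least 100 bp had to be covered (21.4%, against 5.96% of all genes) and 9 of 35 without chromosomes 6 and 8 (25.7%, against 7.13%). Over genes with H2A.Z WT and H3K27me3, the count with H2A.Z AP3 became 9 of 30 (30%, against 37.8%) and 9 of 26 (34.6%, against 41.6%) under the same alternatives. The median covered by H2A.Z WT, 1475 bp, became 962.5 bp with the 1e-12 lists, and that of H3K27me3, 2053 bp, became 1364 bp with windows of 1 kb, which hold fewer bases. H2A.Z AP3 bases as a percentage of H2A.Z WT bases were 13.5 at ligand genes, 4.79 without chromosomes 6 and 8 and 7.37 without Wnt2 and Wnt16. Over ligand genes with H2A.Z WT and H3K27me3 they were 14, 4.11 and 7.19. H3K27me3 was called at 28 to 33 ligand genes, 69% to 80% of those counted, and at 15.7% to 19.7% of all genes. The depth of the libraries is unknown, so the smallest region that could have been called cannot be given.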

Other observations

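Outside the promoter windows, the bodies of 40 ligand genes (1923561 bp; at Fgf21 and Fgf22 the windows covered the gene) held 61973 bp of H3K27me3 at 23 genes, 48173 bp of H2A.Z WT at 30 and 5200 bp of H2A.Z AP3 at 13. Bodies of all protein-coding genes were not counted, so these numbers have no background beside them. Some ligand genes that were uncalled at their starts were covered further in. Wnt8b, a forebrain Wnt, held 4650 bp of H3K27me3 (24.7% of its body), 925 bp of H2A.Z WT and 375 bp of H2A.Z AP3. Fgf23, the phosphate hormone of bone, held 1175 bp of H3K27me3, 850 bp of H2A.Z WT and 750 bp of H2A.Z AP3. Fgf4 and Fgf7 held none there either. Wnt10a, without H2A.Z at its start, held 2450 bp of H2A.Z WT and 825 bp of H2A.Z AP3 in its body, beside 6513 bp of H3K27me3 (61.1%).

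H3K27me3 also covered long stretches inside Wnt3 (13725 bp, 32.8%) and Fgf8 (3025 bp, 77.8%). H2A.Z WT was found in the body of Wnt5b with 8385 bp in 21 regions, and of Wnt3a with 6050 bp in 10. In contrast, no region of any library lay in the bodies of Wnt2b, Fgf10, Fgf11, Fgf12, Fgf15 and Fgf20 outside the windows, although all 6 were called at their starts.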
